A study of Homo sapiens with 24 samples.

Results

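HEK293T cells grown as aggregates in AggreWell microwells were compared with HEK293T cells grown flat (2D), using 6 of the 24 libraries of the series, 3 per format. Of the 26450 genes in the expression table, 11963 reached 1 FPKM in 3 or more of these 6 libraries and were compared. FPKM divides a gene's fragments by its length and by its library's total, so a level is per length and relative to the rest of that library. The series is an RNA sequencing study of 2 human lines, HEK293T and PANC-1, in 2D, in AggreWell and in a dual-axis rotating capillary container (DRCC) at 1 rpm or 30 rpm, with 8 groups of 3 libraries, and it compares the transcriptomes of spheroids. HEK293T is a transformed line from human embryonic kidney that carries the SV40 large T antigen, and the labels give it as epithelial cells of kidney. PANC-1 is a line from a pancreatic duct carcinoma. An AggreWell plate has small pyramid-shaped wells in which settled cells gather into clusters of similar size, while in 2D the cells spread on plastic. All 6 libraries come from 1 established line, and no genetic change or agent is named for either format. The time in culture, the number of cells per microwell and the separate origin of the replicates are not given in the sources used here. The spread behind each p-value is thus that between libraries, and it may be technical.

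Cells that lack oxygen stop hydroxylating the alpha subunits of the hypoxia-inducible factors (HIF). The stabilised subunits pair with ARNT, bind DNA at short elements with an ACGTG or GCGTG core, and raise transcription of genes for glucose uptake, glycolysis, blood vessel growth, collagen modification and the removal of mitochondria. The HIF prolyl hydroxylases EGLN1 and EGLN3 are themselves targets and act as a feedback. In dense aggregates, oxygen and nutrients reach the inner cells by diffusion. No oxygen level was measured here.

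The 6 libraries held 37151862 to 39345190 fragments, with each AggreWell library shallower than each 2D library, and the part of depth in the results was not tested. Across genes, which do not replicate each other, Pearson correlations of log2(FPKM + 1) were 0.997 to 0.998 within 2D, 0.998 within AggreWell and 0.967 to 0.971 between the formats. Within 2D, replicate 2 stood farthest from the other libraries (chi-square per degree of freedom of the counts 9.32 and 8.30, against 2.77 between replicates 1 and 3). AggreWell libraries had more genes at 1 FPKM or above, 12049 ± 14.6 (SD, n = 3) against 11230 ± 31.7. Of the HEK293T markers, CDKN2A stood at 104 ± 3.27 FPKM in 2D and 81.7 ± 1.77 FPKM in AggreWell and at 0 in PANC-1, and NEFL was also expressed. PAX2 was higher in PANC-1 than in HEK293T, and PAX8 was at or near 0 in both lines, so the kidney label rests on part of its markers. The 10 PANC-1 markers summed to 10.8 to 11.5 FPKM in 2D and 21.7 to 23.5 FPKM in AggreWell, against 1937 to 2217 FPKM in PANC-1 in 2D, and ANXA1 alone went from 1.43 to 9.43 FPKM. KRT7 was at 0 in all 6 HEK293T libraries and S100A6 and KRT80 were below 0.1 FPKM. The 8 fibroblast markers summed to 9.52 to 10.4 FPKM in 2D and 10.5 to 10.6 FPKM in AggreWell, nearly all of it COL1A1 and COL3A1, while COL1A2 was at 0. Endothelial markers stayed below 0.2 FPKM in sum, and the 7 blood and immune markers summed to 1.63 to 2.42 FPKM in 2D and 2.90 to 4.35 FPKM in AggreWell, with PTPRC and CD3E at or near 0. The part of these markers in the results was not tested.

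Most expressed genes differed between the formats, and the large differences were nearly all rises in AggreWell. A gene was called at an adjusted p under 0.05 (limma, Benjamini-Hochberg over all 11963 genes). Of these genes 9018 (75.4%) were called, 5711 (47.7%) higher and 3307 (27.6%) lower in AggreWell. At least 2-fold changes on the log2(FPKM + 1) scale were called for 681 genes higher (5.69%) and for 13 lower (0.109%). The 3 libraries of one format did not overlap those of the other for 9331 genes (78.0%). The median log2 change of all tested genes was 0.11, so list medians are read against that value and not against 0. The direction of small changes depends on the scaling: the calls divided into 4523 higher and 4482 lower with median-ratio scaling, 3767 and 5074 with quantile normalization, 7194 and 2217 without mitochondrially encoded genes, and 3823 and 4965 with the trend in GC content and transcript length removed. The all-gene median moved to -0.00048, -0.059, 0.22 and -0.046 under the same 4 settings, and the middle of each list moves with it. For each list, the members higher and lower and the median are therefore given again where any of these settings turned the median's sign. They are also given where a setting moved the median and a count by 1.5 times or more, and that count by more than 1 member. Other moves are mostly left out, also where only the median moved by 1.5 times or more. A setting in which most members of a list had no value is left out as well. Of the tested genes, 598 had no 2D library at 1 FPKM and so passed the minimum through AggreWell alone, and 596 of them were called higher. RNA came from whole cultures, so fewer cells of a kind and less RNA per cell cannot be told apart.

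**Figure D1:**
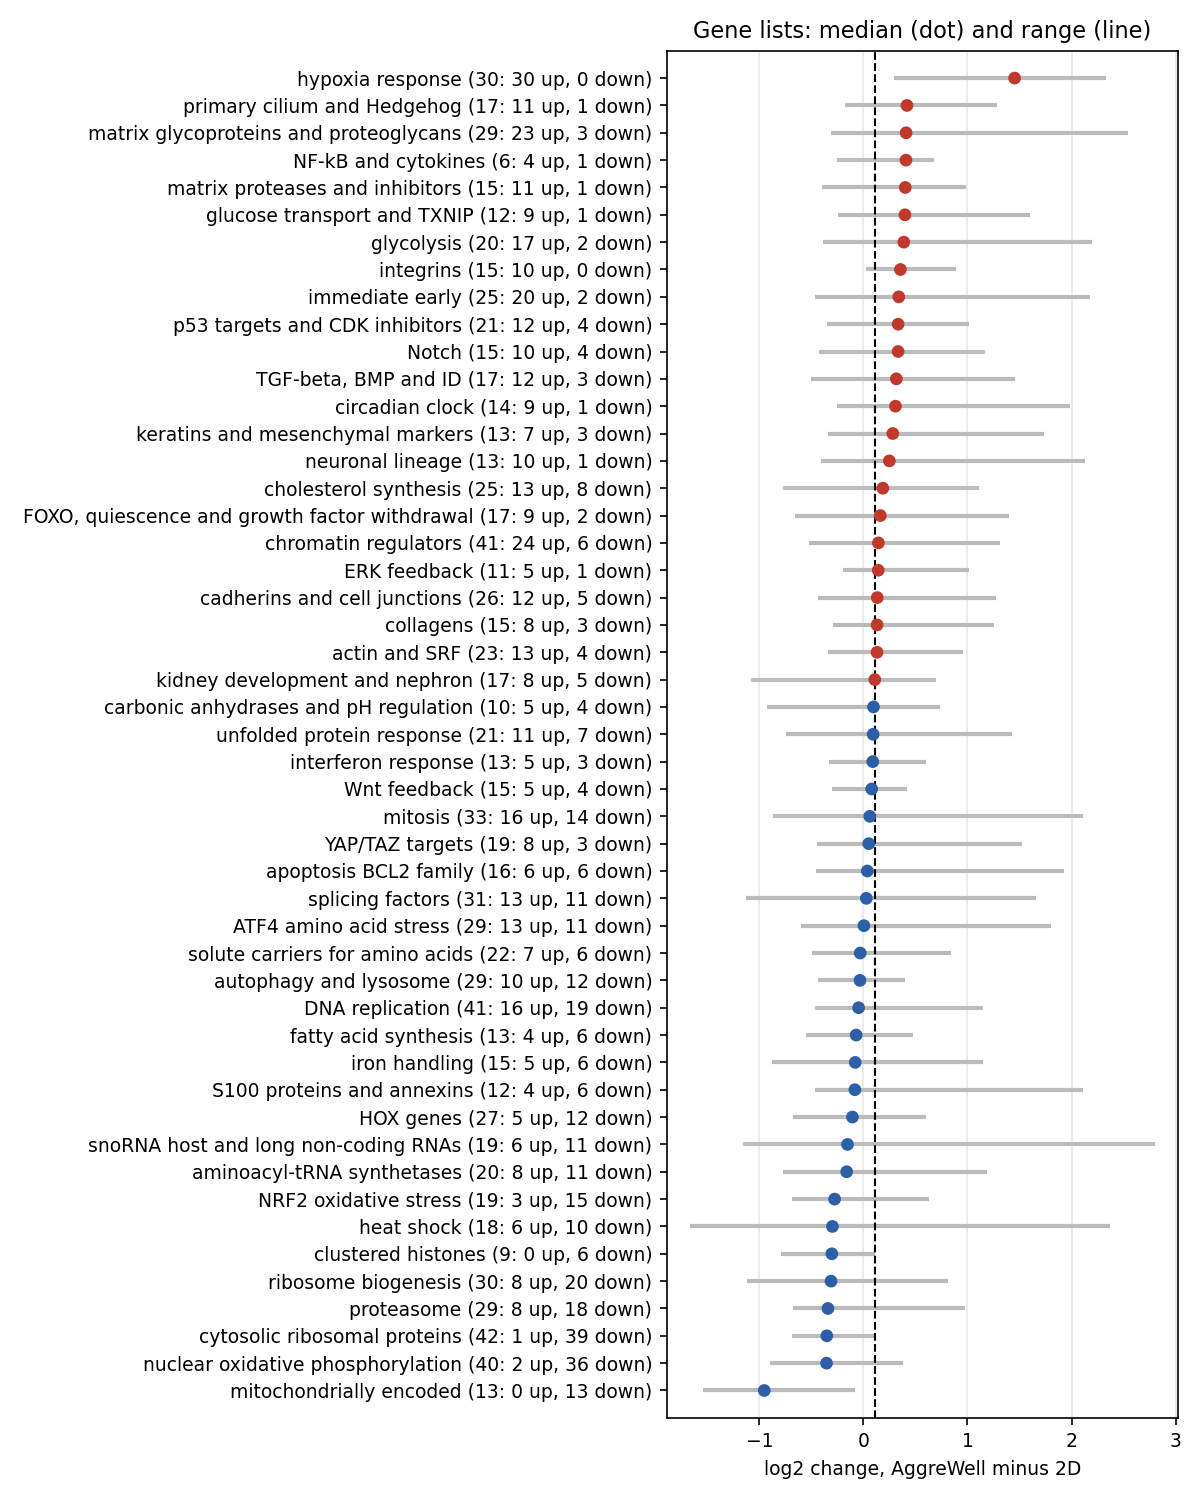
Median log2 change (AggreWell minus 2D, log2(FPKM + 1) scale) of 49 gene lists, shown as dots, with lines from the lowest to the highest member. The dashed line is the all-gene median of 0.11, red dots lie above it and blue dots below, and the counts give tested members and those called up or down; the hypoxia list lies highest at 1.45 and the mitochondrially encoded genes lowest at -0.95.

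The hypoxia response genes rose together in AggreWell. All 30 tested members of a list of 32 were called higher, 24 of them at least 2-fold, and their median log2 change was 1.45, against 0.11 for all genes. In each of the 30 genes, the 3 AggreWell libraries lay above the 3 2D libraries, as they did or did in reverse for 78.0% of all genes. The median was 1.34 with median-ratio scaling, 1.33 with quantile normalization (29 called higher), 1.58 without mitochondrially encoded genes and 1.18 with the GC and length trend removed (29 called higher). The list was chosen with results of these data known, and P4HA1, PPFIA4, NDRG1 and BHLHE40 are named by the rule for list members. Its other members are described because the list leads, a choice made after their values were seen. Fold changes below are log2(FPKM + 1) differences ± SE with 3 libraries per format, a scale that understates the change of weakly expressed genes. Each was called, and the largest adjusted p in the list was 7.3e-04 (limma, KDM4B).

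Promoters of 25 of the 30 tested list members were found in a RefSeq table of GRCh38.p14, from 250 bases before to 50 bases after the annotated start. They were searched on both strands for ACGTG, one form of the HIF core, which also lies inside the E-box CACGTG that other factors bind. Of the 25 promoters, 15 (60.0%) held at least 1 match, against 5900 of all 27305 promoters in the table (21.6%). The list holds genes already linked to the hypoxia response, so this excess may follow from how the list was made. A match is a run of letters and does not show binding. No promoter was found for NDRG1, BNIP3L, VEGFA, HILPDA and ANKZF1, so these were not searched. Matches are in capitals (an overlapping pair on the 2 strands appears as CACGTG and counts as 1). The 5 promoters printed here are those of the searched members with the largest rises that hold a match. They are P4HA1 (chr10:73096817-73097116, minus strand), PPFIA4 (chr1:203026241-203026540, plus strand), BHLHE40 (chr3:4979187-4979486, plus strand), LOX (chr5:122078210-122078509, minus strand) and ANKRD37 (chr4:185396591-185396890, plus strand), each printed 5′ to 3′ along the gene.
P4HA1: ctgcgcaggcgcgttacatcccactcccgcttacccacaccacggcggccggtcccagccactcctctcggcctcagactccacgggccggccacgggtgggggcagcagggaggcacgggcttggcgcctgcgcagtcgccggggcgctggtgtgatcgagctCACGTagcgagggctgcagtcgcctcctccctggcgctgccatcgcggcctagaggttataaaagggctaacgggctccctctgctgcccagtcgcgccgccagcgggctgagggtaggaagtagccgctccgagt
PPFIA4: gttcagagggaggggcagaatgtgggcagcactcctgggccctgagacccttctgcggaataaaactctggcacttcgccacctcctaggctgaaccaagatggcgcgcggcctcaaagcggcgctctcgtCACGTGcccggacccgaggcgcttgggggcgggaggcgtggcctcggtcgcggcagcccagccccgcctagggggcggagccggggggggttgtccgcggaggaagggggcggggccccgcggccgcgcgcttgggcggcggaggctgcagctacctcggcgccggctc
BHLHE40: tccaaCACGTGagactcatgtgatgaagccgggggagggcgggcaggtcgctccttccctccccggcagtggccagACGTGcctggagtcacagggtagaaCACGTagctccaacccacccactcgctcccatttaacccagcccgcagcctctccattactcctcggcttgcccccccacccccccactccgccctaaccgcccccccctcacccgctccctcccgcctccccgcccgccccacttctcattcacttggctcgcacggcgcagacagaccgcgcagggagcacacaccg
LOX: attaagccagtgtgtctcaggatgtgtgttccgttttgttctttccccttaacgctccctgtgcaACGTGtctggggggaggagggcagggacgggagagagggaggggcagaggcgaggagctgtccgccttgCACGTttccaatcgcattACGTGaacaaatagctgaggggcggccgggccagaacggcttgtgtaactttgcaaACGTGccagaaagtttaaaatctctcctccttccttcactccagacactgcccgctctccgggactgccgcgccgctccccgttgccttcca
ANKRD37: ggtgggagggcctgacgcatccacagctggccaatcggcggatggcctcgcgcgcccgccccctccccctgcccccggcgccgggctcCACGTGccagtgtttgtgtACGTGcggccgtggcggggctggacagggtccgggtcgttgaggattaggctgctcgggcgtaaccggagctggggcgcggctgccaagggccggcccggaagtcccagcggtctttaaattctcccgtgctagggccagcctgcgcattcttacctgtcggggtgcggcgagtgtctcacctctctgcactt
LOX held 4 matches and BHLHE40 held 3, while P4HA1 and PPFIA4, with larger rises, held 1 each. PFKFB4, KDM3A and SLC2A1, which also rose strongly, had none in this window, where the GCGTG form was not searched.

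Enzymes that modify collagen are given first. P4HA1, a catalytic subunit of collagen prolyl 4-hydroxylase, was at 14.9, 16.2 and 14.5 FPKM in the 2D libraries and 80.99, 82.5 and 78.4 FPKM in the AggreWell libraries. The ranges lie far apart, and the log2 change was 2.34 ± 0.043 (limma adjusted p = 6.6e-09). PLOD2, a lysyl hydroxylase of collagen from the matrix list, was at 15.5, 18.5 and 15.5 FPKM in the 2D libraries and 101, 104 and 97.03 FPKM in the AggreWell libraries, a change of 2.54 ± 0.064. LOX, the lysyl oxidase that cross-links collagen and elastin, was at 3.64, 4.17 and 3.73 FPKM in the 2D libraries and 17.4, 18.96 and 17.7 FPKM in the AggreWell libraries, a change of 1.97 ± 0.054. All 3 enzymes act on collagen. None overlapped between the formats, which held for 78.0% of all tested genes and was required by the rule that named P4HA1 and PLOD2. The second prolyl hydroxylase subunit, P4HA2, rose less (8.62 ± 0.218 to 19.4 ± 0.446 FPKM, log2 1.09 ± 0.036).

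Genes of glucose use rose too. SLC2A1, the glucose transporter GLUT1, was at 22.7, 22.3 and 23.2 FPKM in the 2D libraries and 68.3, 66.9 and 68.3 FPKM in the AggreWell libraries, a change of 1.54 ± 0.027. PFKFB4 and PFKFB3, which make the activator of phosphofructokinase, rose from 3.94 ± 0.5003 to 17.04 ± 0.504 FPKM (log2 1.87 ± 0.069) and from 19.3 ± 0.191 to 42.4 ± 0.126 FPKM (log2 1.09 ± 0.026). PDK1, a kinase that switches off pyruvate dehydrogenase, was at 2.49, 2.96 and 2.71 FPKM in the 2D libraries and 9.81, 9.71 and 9.78 FPKM in the AggreWell libraries, a change of 1.53 ± 0.053, and its relative PDK3 changed by 0.76 ± 0.038. The mitochondrial adenylate kinase AK4 rose from 14.2 ± 0.359 to 34.6 ± 0.267 FPKM (log2 1.23 ± 0.031), and HILPDA, an inhibitor of lipid droplet breakdown, from 27.6 ± 0.625 to 80.6 ± 2.76 FPKM (log2 1.51 ± 0.033). SLC2A1 and HILPDA reached the highest AggreWell levels of these 7 genes.

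Secreted factors and regulators rose as well. VEGFA, the growth factor of blood vessels, was at 14.96, 14.4 and 15.03 FPKM in the 2D libraries and 42.8, 43.9 and 43.9 FPKM in the AggreWell libraries, a change of 1.496 ± 0.031. ADM, which encodes the vasodilator adrenomedullin, rose from 2.86 ± 0.492 to 9.54 ± 0.902 FPKM (log2 1.45 ± 0.097), and the glycoprotein hormone STC2 from 27.1 ± 1.19 to 75.7 ± 1.24 FPKM (log2 1.45 ± 0.035). BHLHE40, a repressor that also acts on the circadian clock, was at 13.3, 13.1 and 13.3 FPKM in the 2D libraries and 57.03, 52.2 and 56.8 FPKM in the AggreWell libraries, a change of 1.99 ± 0.039. The histone demethylase KDM3A rose more than its relative KDM4B, at 1.82 ± 0.043 against 0.30 ± 0.051. The oxygen sensor EGLN1 changed by 1.03 ± 0.054 and EGLN3 by 0.59 ± 0.040. MXI1, a MYC antagonist, changed by 0.67 ± 0.045.

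Genes of mitophagy and stress were among the more abundant members. BNIP3 and BNIP3L, receptors for the removal of mitochondria, rose from 71.2 ± 0.721 to 182 ± 2.697 FPKM (log2 1.35 ± 0.022) and from 10.3 ± 0.675 to 41.9 ± 1.79 FPKM (log2 1.92 ± 0.050). NDRG1, a stress-responsive gene widely used as a hypoxia marker, was at 30.2, 29.6 and 30.8 FPKM in the 2D libraries and 149, 146 and 149 FPKM in the AggreWell libraries, a change of 2.26 ± 0.026 (limma adjusted p = 1.3e-09). DDIT4, an inhibitor of mTORC1, was at 90.2, 86.5 and 90.6 FPKM in the 2D libraries and 187, 188 and 192 FPKM in the AggreWell libraries, a change of 1.08 ± 0.025. PPFIA4, a liprin, was at 1.52, 1.43 and 1.57 FPKM in the 2D libraries and 11.8, 11.3 and 10.8 FPKM in the AggreWell libraries, a change of 2.29 ± 0.049. ANKRD37 changed by 1.65 ± 0.091, FAM162A by 1.45 ± 0.039, INSIG2, a brake on sterol synthesis, by 1.503 ± 0.053, and ANKZF1 by 1.09 ± 0.034. The smallest rises were those of ERO1A, an oxidase of the endoplasmic reticulum, at 0.67 ± 0.042, KCTD11 at 0.53 ± 0.062, and EGLN3 and KDM4B. CA9, the cell-surface carbonic anhydrase, did not reach the minimum: it was listed at 0 in the 3 2D libraries and at 0.849, 0.966 and 0.795 FPKM in AggreWell. ANGPTL4 was near 0 in both formats.

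**Figure D2:**
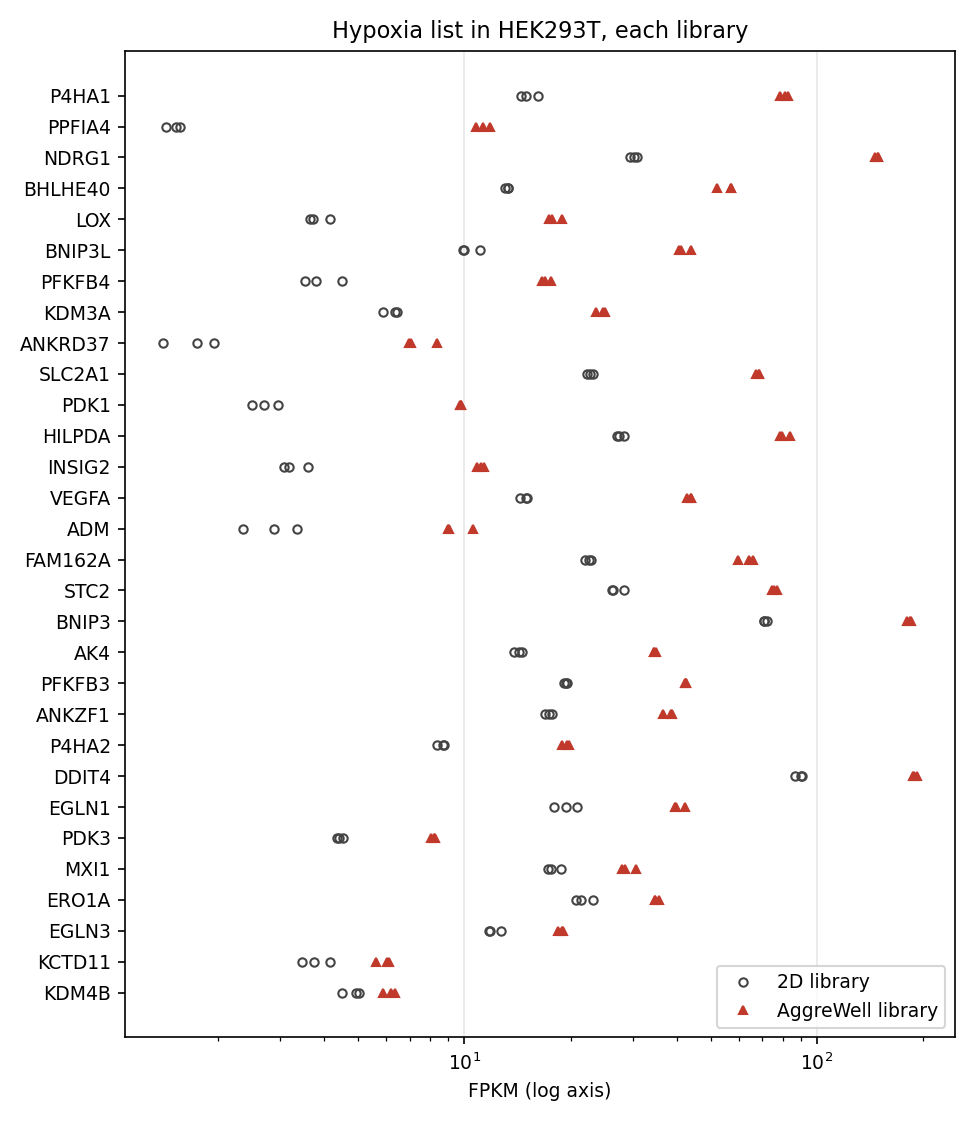
FPKM of the 30 tested hypoxia list members in each library on a log axis, with open circles for the 3 2D libraries and red triangles for the 3 AggreWell libraries. In every gene the triangles lie to the right of the circles, from P4HA1 at the top (log2 change 2.34) to KDM4B at the bottom (0.30).

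The genes of the HIF machinery itself were looked up after the values of its targets had been seen. HIF1A, whose protein is regulated mainly by its breakdown, rose from 6.82 ± 0.401 to 17.9 ± 0.404 FPKM (log2 1.27 ± 0.045). Its relative EPAS1 fell slightly (3.47 ± 0.0978 to 2.94 ± 0.0488 FPKM, log2 -0.18 ± 0.044), and ARNT rose slightly (log2 0.15 ± 0.034). VHL, the subunit that marks HIF for breakdown, changed by -0.077 ± 0.032 and the asparaginyl hydroxylase HIF1AN by -0.11 ± 0.046, and neither was called (limma adjusted p = 0.053 and 0.059).

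The hypoxia list stood higher in AggreWell than in the rotating formats for most members. These comparisons use the same AggreWell libraries as the comparison with 2D and are not independent of it. At 1 rpm, 26 of the 30 members were lower than in AggreWell and 1 was higher, where 33.8% of 12548 genes were lower; at 30 rpm 29 were lower and 1 higher, where 38.7% of genes were lower. NDRG1 stood at 86.1 ± 2.57 FPKM at 1 rpm and 84.97 ± 1.19 FPKM at 30 rpm, between its 2D and AggreWell levels. SLC2A1 stood at 14.2 ± 0.312 and 7.52 ± 0.352 FPKM, below its 2D level of 22.7 ± 0.436 FPKM, and BNIP3 at 40.1 ± 1.72 and 29.2 ± 1.73 FPKM was likewise below 2D. DDIT4 was the exception in both formats, at 517 ± 7.09 and 357 ± 8.47 FPKM. STC2 at 1 rpm was not called different from AggreWell (log2 -0.022 ± 0.037), nor was ERO1A (0.069 ± 0.037) or ANKRD37 (-0.19 ± 0.091).

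**Figure D3:**
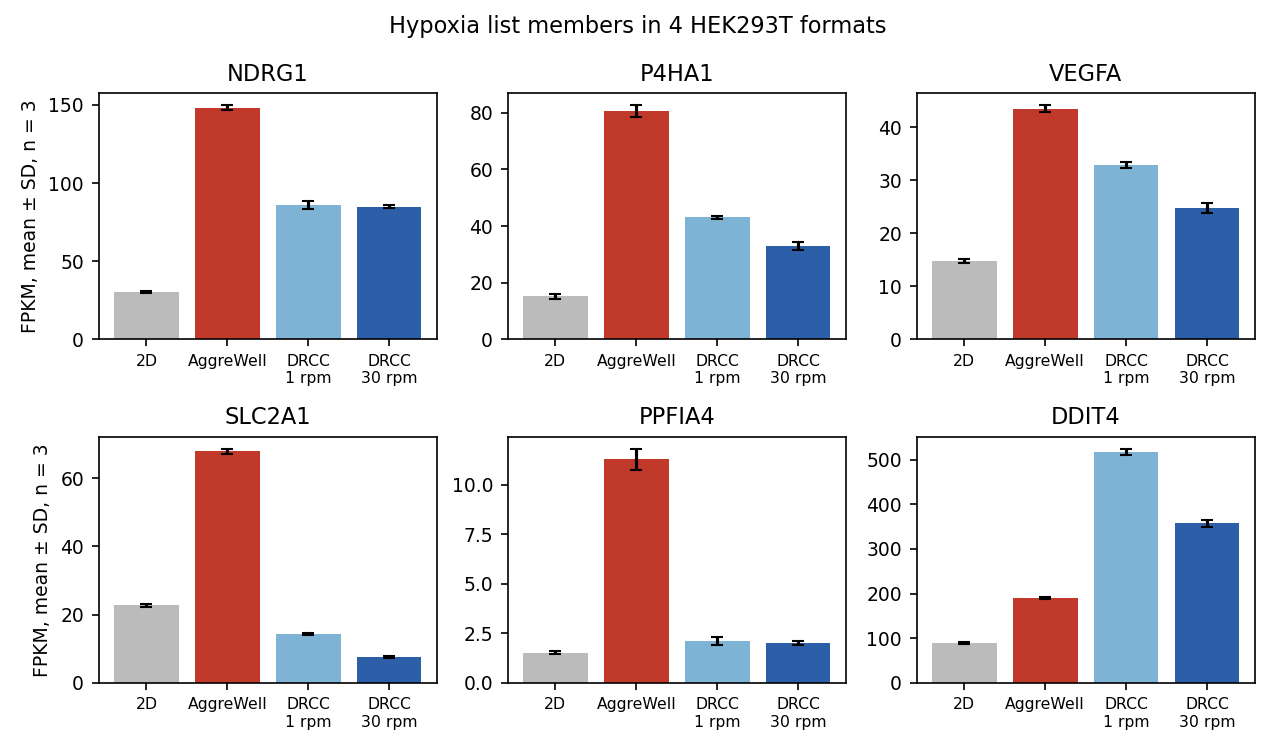
Mean FPKM ± SD (n = 3 libraries) of 6 hypoxia list members in HEK293T in 2D, AggreWell, DRCC at 1 rpm and DRCC at 30 rpm; bars start at 0 and each panel has its own scale. AggreWell is highest for NDRG1, P4HA1, VEGFA, SLC2A1 and PPFIA4, while DDIT4 is highest in DRCC at 1 rpm.

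The rise was larger in HEK293T than in PANC-1 for 27 of the 30 members and smaller for 2, by a test of the line difference over the 12 2D and AggreWell libraries of both lines (limma, interaction term). Over all 12734 genes in that test, 4024 (31.6%) had the more positive and 3213 (25.2%) the more negative change in HEK293T. The shares of all genes that rose or fell in PANC-1 are not given here. PANC-1 counts of this and the other lists thus stand without that background. In PANC-1, 27 of the same 30 genes rose and 1 fell, with a median of 0.55. The fall was that of ADM (log2 -0.22 ± 0.079), and VEGFA (-0.040 ± 0.037) and PFKFB3 (-0.051 ± 0.035) were not called there. BHLHE40 differed most, at 1.795 ± 0.052 between the lines (limma adjusted p = 2.2e-10), followed by ADM at 1.67 ± 0.11 and LOX at 1.67 ± 0.084. KDM4B (-0.40 ± 0.071) and DDIT4 (-0.17 ± 0.052) had the larger rise in PANC-1, and for EGLN3 the line difference was not called (0.055 ± 0.084, limma adjusted p = 0.6).

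**Figure D4:**
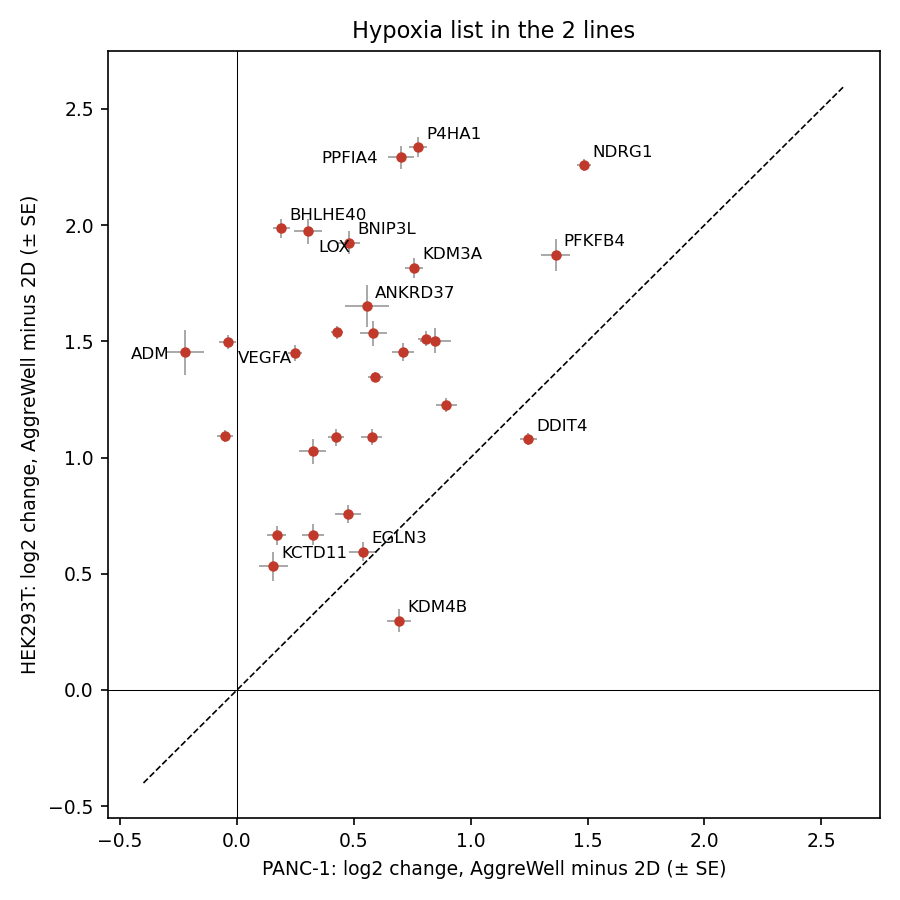
Log2 change (AggreWell minus 2D, ± SE, 3 libraries per format) of the 30 hypoxia list members in PANC-1 on the x axis and HEK293T on the y axis, with a dashed line where both are equal. All points but DDIT4 and KDM4B lie above the line, and ADM lies left of 0 at -0.22.

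Glycolysis genes were raised and genes of mitochondrial respiration lowered. Of the glycolysis list, 17 of 20 tested members rose and 2 fell (median log2 change 0.39), and 6 rises were at least 2-fold. GBE1, the glycogen branching enzyme, was at 5.73, 5.703 and 5.47 FPKM in the 2D libraries and 29.9, 29.3 and 29.1 FPKM in the AggreWell libraries, a change of 2.199 ± 0.034. The enolase ENO2 was at 9.08, 9.44 and 9.48 FPKM in the 2D libraries and 43.4, 45.8 and 43.1 FPKM in the AggreWell libraries, a change of 2.12 ± 0.036, and the aldolase ALDOC rose from 11.99 ± 0.437 to 40.8 ± 0.612 FPKM (log2 1.69 ± 0.035). The hexokinase HK2 rose from 24.8 ± 0.589 to 58.7 ± 0.705 FPKM (log2 1.21 ± 0.029). In PANC-1, 11 of the 20 rose and 5 fell (median 0.094), and 13 had the more positive change in HEK293T. Of the glucose transport list, 9 of 12 tested members rose and 1 fell (median log2 change 0.40, but 5 and 3, median -0.0037, with quantile normalization). The transporter SLC2A3 rose from 4.47 ± 0.115 to 15.6 ± 0.421 FPKM (log2 1.598 ± 0.039), and ARRDC4, an arrestin relative of TXNIP that limits glucose uptake, from 7.299 ± 0.807 to 21.6 ± 1.45 FPKM (log2 1.45 ± 0.074). MLXIPL, the glucose-responsive factor ChREBP, rose from 5.05 ± 0.219 to 12.6 ± 0.558 FPKM (log2 1.17 ± 0.047).

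All 13 genes encoded by the mitochondrial genome fell, with a median log2 change of -0.95, and 6 of the falls were at least 2-fold. With quantile normalization, 8 fell and 3 rose (median -0.58). ND6, the only one of them encoded on the light strand, was at 226, 254 and 220.4 FPKM in the 2D libraries and 83.8, 84.97 and 70.1 FPKM in the AggreWell libraries, a change of -1.54 ± 0.079. ND2, another complex I subunit, was at 2633, 2712 and 2863 FPKM in the 2D libraries and 1065, 1022 and 1133 FPKM in the AggreWell libraries, a change of -1.35 ± 0.042. The ATP synthase genes ATP8 and ATP6 changed by -1.21 ± 0.043 and -1.03 ± 0.027, the cytochrome oxidase gene COX3 by -1.12 ± 0.022, ND3 by -1.03 ± 0.017 and cytochrome b (CYTB) by -0.95 ± 0.030. The falls were uneven, since ND4 changed by only -0.080 ± 0.021 and COX1 by -0.13 ± 0.023, 2 genes named after their values were seen. Transcripts of this genome have near-identical nuclear copies, so their counts are uncertain. As a share of all FPKM, the 13 genes fell from 11.3% ± 0.128 to 8.69% ± 0.129 (SD, n = 3; exact permutation test, two-sided, p = 0.10, the smallest that 3 against 3 allows), and as a share of recovered fragments from 4.77% to 3.51%. In PANC-1 the median of the 13 was -0.0092, and 12 had the more negative change in HEK293T.

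Nuclear genes of oxidative phosphorylation fell too: 2 of 40 tested members rose and 36 fell (median log2 change -0.35). ATP5MC1 and ATP5MC3, copies of the ATP synthase c subunit, fell from 211 ± 3.56 to 113 ± 1.77 FPKM (log2 -0.90 ± 0.023) and from 130.4 ± 0.849 to 76.5 ± 1.59 FPKM (log2 -0.76 ± 0.024). The complex I subunit NDUFB9 changed by -0.66 ± 0.032 and the cytochrome oxidase subunit COX5B by -0.65 ± 0.031. In PANC-1 the median was -0.058, and 36 of the 40 had the more negative change in HEK293T. Of single genes with mitochondrial products, TIMM10, a chaperone of protein import, fell from 29.6 ± 0.318 to 14.1 ± 0.246 FPKM (log2 -1.01 ± 0.030), and CHCHD10 from 208 ± 0.561 to 106 ± 1.61 FPKM (log2 -0.96 ± 0.021). ATAD3B, which has near-identical relatives and is uncertain for that reason, changed by -0.95 ± 0.046.

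Most ribosomal and proteasome genes fell on the deposited FPKM scale. Of the cytosolic ribosomal proteins, 1 of 42 tested members rose and 39 fell (median log2 change -0.35, but 13 and 24, median -0.061, with quantile normalization and 6 and 34, median -0.22, without mitochondrially encoded genes). The all-gene median under quantile normalization was -0.059, near that of the list. RPS14 was at 462, 446 and 460.1 FPKM in the 2D libraries and 289, 280.4 and 279 FPKM in the AggreWell libraries, a change of -0.69 ± 0.023, and RPS9 and RPL15 changed by -0.64 ± 0.017 and -0.62 ± 0.019. In ribosome biogenesis, 8 of 30 tested members rose and 20 fell (median log2 change -0.31). NOP16, a nucleolar assembly factor, was at 126, 117 and 122 FPKM in the 2D libraries and 54.4, 55.7 and 56.6 FPKM in the AggreWell libraries, a change of -1.12 ± 0.031, while GNL3 went the other way at 0.81 ± 0.028. NPM3, a nucleolar chaperone, was at 177, 163 and 169 FPKM in the 2D libraries and 86.7, 87.1 and 88.9 FPKM in the AggreWell libraries, a change of -0.94 ± 0.032. In PANC-1 both lists were also low, with medians of -0.28 and -0.32. Of the proteasome list, 8 of 29 tested members rose and 18 fell (median log2 change -0.34, but 10 and 16, median -0.13, with quantile normalization), from PSMB5, a catalytic subunit, at -0.68 ± 0.028 to the ATPase PSMC6 at 0.97 ± 0.043. Of the aminoacyl-tRNA synthetases, 8 of 20 tested members rose and 11 fell (median log2 change -0.16, but 9 and 10, median -0.041, with quantile normalization and 9 and 9, median -0.030, without mitochondrially encoded genes), with EPRS1 at 1.18 ± 0.033 and YARS1 at -0.77 ± 0.024.

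Chaperones moved in opposite directions. Of the heat shock list, 6 of 18 tested members rose and 10 fell (median log2 change -0.30). HSP90AA1, the inducible cytosolic HSP90, was at 122, 121 and 122 FPKM in the 2D libraries and 635, 630.5 and 625 FPKM in the AggreWell libraries, a change of 2.37 ± 0.018 (limma adjusted p = 9.4e-11). HSPA1B, an inducible HSP70, was at 469, 456 and 453 FPKM in the 2D libraries and 181, 185 and 182 FPKM in the AggreWell libraries, a change of -1.33 ± 0.021, and its near-identical copy HSPA1A changed by -1.67 ± 0.12, so reads may have been divided between them. HSPA8, the constitutive HSP70, was at 855, 835 and 861 FPKM in the 2D libraries and 447, 443 and 446 FPKM in the AggreWell libraries, a change of -0.93 ± 0.019. HSP90AA1 thus rose while these 3 HSP70 genes fell in the same libraries. HSP90B1, the HSP90 of the endoplasmic reticulum, rose from 108 ± 0.412 to 292 ± 4.42 FPKM (log2 1.42 ± 0.021). The unfolded protein response list that holds it was divided: 11 of 21 tested members rose and 7 fell (median log2 change 0.093, but 7 and 10, median -0.035, with median-ratio scaling and 9 and 11, median -0.071, with the GC and length trend removed).

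Stress and immediate early genes rose in part. Of the immediate early list, 20 of 25 tested members rose and 2 fell (median log2 change 0.34, but 10 and 5, median 0.053, with quantile normalization). FOS was at 1.15, 0.961 and 0.832 FPKM in the 2D libraries and 8.16, 8.14 and 7.57 FPKM in the AggreWell libraries, a change of 2.18 ± 0.066. JUN was at 84.7, 81.9 and 86.6 FPKM in the 2D libraries and 253, 248 and 254 FPKM in the AggreWell libraries, a change of 1.56 ± 0.026, and JUND changed by 1.4999 ± 0.032. FOS and JUN together form the AP-1 factor. ATF3, a stress-induced partner of JUN, was at 12.8, 12.7 and 12.6 FPKM in the 2D libraries and 47.2, 46.3 and 46.6 FPKM in the AggreWell libraries, a change of 1.8001 ± 0.027. In PANC-1 FOS rose (2.07 ± 0.058) while JUN (-0.46 ± 0.030) and ATF3 (-0.36 ± 0.040) fell. The ATF4 amino acid stress list showed no common direction: 13 of 29 tested members rose and 11 fell (median log2 change 0.0046, but 10 and 14, median -0.12, with median-ratio scaling and 13 and 9, median -0.026, with quantile normalization). DDIT3, the factor CHOP, rose from 7.25 ± 0.402 to 14.5 ± 0.421 FPKM (log2 0.91 ± 0.046). Of the NRF2 list, 3 of 19 tested members rose and 15 fell (median log2 change -0.28): TALDO1 of the pentose phosphate pathway fell from 262 ± 12.3 to 162 ± 3.198 FPKM (log2 -0.69 ± 0.035), HMOX1, haem oxygenase, from 55.9 ± 2.04 to 35.96 ± 2.12 FPKM (log2 -0.62 ± 0.046), and GCLM, of glutathione synthesis, from 7.41 ± 0.697 to 4.79 ± 0.114 FPKM (log2 -0.53 ± 0.061).

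Many matrix and integrin genes rose on the deposited FPKM scale, by counts that depend on the setting. Of the matrix glycoproteins and proteoglycans, 23 of 29 tested members rose and 3 fell (median log2 change 0.41, but 18 and 6, median 0.27, with the GC and length trend removed); the list shares P4HA1, P4HA2 and LOX with the hypoxia list. FN1, fibronectin, was at 2.59, 2.61 and 2.56 FPKM in the 2D libraries and 7.28, 6.93 and 6.53 FPKM in the AggreWell libraries, a change of 1.14 ± 0.048. Of the collagens, 8 of 15 tested members rose and 3 fell (median log2 change 0.13, but 7 and 7, median -0.00060, with quantile normalization, 11 and 1, median 0.26, without mitochondrially encoded genes and 6 and 6, median -0.081, with the GC and length trend removed). COL27A1 rose from 6.22 ± 0.106 to 16.2 ± 0.819 FPKM (log2 1.25 ± 0.044) and COL6A2 from 11.1 ± 0.794 to 25.4 ± 0.305 FPKM (log2 1.12 ± 0.049). Of the matrix proteases and inhibitors, 11 of 15 tested members rose and 1 fell (median log2 change 0.40, but 6 and 3, median 0.13, with quantile normalization), led by the sheddase ADAM10 (0.99 ± 0.068). Of the integrins and their adaptors, 10 of 15 tested members rose and none fell (median log2 change 0.36, but 7 and 3, median 0.093, with quantile normalization and 6 and 4, median 0.093, with the GC and length trend removed). ITGB1, the shared beta subunit of many integrins, was at 13.9, 13.97 and 14.7 FPKM in the 2D libraries and 26.97, 27.2 and 27.1 FPKM in the AggreWell libraries, a change of 0.89 ± 0.033. In PANC-1 3 of the 15 rose and 5 fell, and 13 had the more positive change in HEK293T.

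Lists of cell contacts and the cytoskeleton held rises and falls. Of the cadherins and junction genes, 12 of 26 tested members rose and 5 fell (median log2 change 0.13, but 8 and 10, median -0.037, with quantile normalization, 18 and 1, median 0.25, without mitochondrially encoded genes and 8 and 12, median -0.11, with the GC and length trend removed). The protocadherin PCDH10 rose from 8.802 ± 0.273 to 22.6 ± 0.5698 FPKM (log2 1.27 ± 0.037), and the desmosomal genes DSP and DSG2 changed by 0.71 ± 0.034 and 0.67 ± 0.036. Of actin and SRF genes, 13 of 23 tested members rose and 4 fell (median log2 change 0.13, but 10 and 9, median 0.0048, with median-ratio scaling, 14 and 2, median 0.26, without mitochondrially encoded genes and 11 and 10, median -0.0016, with the GC and length trend removed), among them tropomyosin TPM2 (3.97 ± 0.129 to 8.65 ± 0.136 FPKM, log2 0.96 ± 0.041) and the filamins FLNC (0.88 ± 0.037) and FLNA (0.63 ± 0.024). Of the YAP/TAZ targets, genes whose transcription follows cell spreading, 8 of 19 tested members rose and 3 fell (median log2 change 0.051, but 6 and 7, median -0.043, with median-ratio scaling, 4 and 12, median -0.19, with quantile normalization and 4 and 8, median -0.038, with the GC and length trend removed). ANKRD1 was at 0.259, 0.114 and 0.241 FPKM in the 2D libraries and 2.62, 2.47 and 2.299 FPKM in the AggreWell libraries, a change of 1.53 ± 0.067. The best-known targets CCN1 and CCN2, named after their values were seen, went from 7.35 ± 0.353 to 8.54 ± 0.894 FPKM and from 2.88 ± 0.239 to 2.89 ± 0.572 FPKM, the first called (log2 0.19 ± 0.071) and the second not (log2 -0.0046 ± 0.11, limma adjusted p = 0.97). In PANC-1, 1 of the same 19 genes rose and 15 fell (median -0.40), and 15 had the more positive change in HEK293T. CCN2 fell there by 1.81 on the log2 scale.
 
Keratins and mesenchymal genes were mixed: 7 of 13 tested members rose and 3 fell (median log2 change 0.28, but 6 and 5, median 0.044, with quantile normalization). Of the 6 with a mean of at least 5 FPKM, 2 rose and 3 fell (median -0.11). The simple-epithelial keratin KRT8 was at 29.7, 28.4 and 32.1 FPKM in the 2D libraries and 71.4, 70.3 and 69.3 FPKM in the AggreWell libraries, a change of 1.201 ± 0.043, and KRT17 rose from 0.101 ± 0.0298 to 2.66 ± 0.162 FPKM (log2 1.73 ± 0.056). ZEB1, a repressor of epithelial genes, rose from 0.456 ± 0.0444 to 2.58 ± 0.143 FPKM (log2 1.299 ± 0.055). Of the S100 proteins and annexins, 4 of 12 tested members rose and 6 fell (median log2 change -0.082, but 5 and 5, median 0.021, without mitochondrially encoded genes). ANXA1, a membrane-binding annexin, was at 1.59, 1.001 and 1.71 FPKM in the 2D libraries and 9.98, 9.42 and 8.88 FPKM in the AggreWell libraries, a change of 2.11 ± 0.11. It is also one of the PANC-1 markers, of which 5 of 10 were tested and 4 rose, where 47.7% of all genes did. ANXA3, 1 of these 4, was lower in PANC-1 in 2D (0.0481 ± 0.0548 FPKM) than in HEK293T in 2D (1.14 ± 0.113 FPKM). S100A6, at 1715 ± 142 to 1905 ± 82.9 FPKM in PANC-1 in the same 2 formats, was below 0.1 FPKM in all 6 HEK293T libraries, and KRT7 was at 0.

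Counts of the cholesterol synthesis list were near the shares of all genes in HEK293T. Of the cholesterol synthesis list, 13 of 25 tested members rose and 8 fell (median log2 change 0.19, but 11 and 12, median 0.063, with median-ratio scaling) in HEK293T, while 3 of the 25 rose and 18 fell in PANC-1 (median -0.31), and 17 had the more positive change in HEK293T. With the GC and length trend removed, 11 members were higher and 10 lower in HEK293T (median 0.051). INSIG1, the sterol-sensitive retainer of SREBP, was at 45.3, 49.8 and 44.4 FPKM in the 2D libraries and 99.7, 106 and 98.9 FPKM in the AggreWell libraries, a change of 1.11 ± 0.047. In PANC-1 it fell by 0.96 on the log2 scale, a difference of 2.07 ± 0.076 (limma adjusted p = 1.1e-09). IDI1 and SC5D, enzymes of the pathway, rose from 14.2 ± 1.13 to 27.6 ± 0.9802 FPKM (log2 0.91 ± 0.055) and from 8.98 ± 0.863 to 17.7 ± 0.891 FPKM (log2 0.91 ± 0.065). Of the fatty acid list, 4 of 13 tested members rose and 6 fell (median log2 change -0.070, but 2 and 7, median -0.19, with median-ratio scaling, 6 and 5, median 0.053, without mitochondrially encoded genes and 3 and 9, median -0.34, with the GC and length trend removed). The desaturases FADS1 (0.48 ± 0.026) and SCD (0.37 ± 0.019) rose and MID1IP1 (-0.55 ± 0.036) fell.

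Cell cycle lists had no common direction. Of the mitosis list, 16 of 33 tested members rose and 14 fell (median log2 change 0.061, but 16 and 16, median -0.065, with median-ratio scaling and 16 and 15, median -0.024, with the GC and length trend removed), with 11 rises of at least 2-fold. TOP2A, topoisomerase II alpha, was at 9.92, 11.2 and 10.2 FPKM in the 2D libraries and 49.4, 48.2 and 47.5 FPKM in the AggreWell libraries, a change of 2.11 ± 0.044. The kinetochore gene CENPF changed by 1.72 ± 0.052, NUF2 by 1.43 ± 0.070 and the cytokinesis gene ANLN by 1.38 ± 0.038. Of the DNA replication list, 16 of 41 tested members rose and 19 fell (median log2 change -0.046, but 22 and 16, median 0.084, with quantile normalization and 21 and 8, median 0.085, without mitochondrially encoded genes). POLA1, of the primase complex, rose from 4.71 ± 0.115 to 11.6 ± 0.116 FPKM (log2 1.15 ± 0.038). Of the clustered histones, none of 9 tested members rose and 6 fell (median log2 change -0.30, but 2 and 6, median -0.54, with quantile normalization), among them H2BC12 (61.9 ± 2.39 to 35.3 ± 0.566 FPKM, log2 -0.79 ± 0.033), and all 9 had the more negative change in HEK293T than in PANC-1, where 7 rose. Histone genes have near-identical copies and their counts are uncertain.

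The nuclear RNAs MALAT1 and NEAT1 had some of the largest rises among non-coding genes. MALAT1, a nuclear long non-coding RNA, was at 2.72, 2.94 and 2.63 FPKM in the 2D libraries and 24.97, 25.9999 and 24.5 FPKM in the AggreWell libraries, a change of 2.798 ± 0.045. NEAT1, the RNA of paraspeckles, rose from 2.45 ± 0.09898 to 14.2 ± 0.0871 FPKM (log2 2.14 ± 0.040). MIR210HG, the host transcript of a hypoxia-induced microRNA, was at 1.53, 2.03 and 1.46 FPKM in the 2D libraries and 10.7, 11.5 and 12.98 FPKM in the AggreWell libraries, a change of 2.25 ± 0.094. DANCR, a snoRNA host, was at 54.3, 55.8 and 56.01 FPKM in the 2D libraries and 24.1, 24.9 and 23.6 FPKM in the AggreWell libraries, a change of -1.16 ± 0.030. Of the snoRNA hosts and long non-coding RNAs as a list, 6 of 19 tested members rose and 11 fell (median log2 change -0.15, but 4 and 12, median -0.27, with median-ratio scaling and 8 and 8, median 0.041, with quantile normalization). SNHG19 and LINC02315 changed by -0.85 ± 0.037 and -0.79 ± 0.044. Of the splicing factors, 13 of 31 tested members rose and 11 fell (median log2 change 0.028, but 11 and 15, median -0.10, with median-ratio scaling and 9 and 18, median -0.34, with the GC and length trend removed); PNISR (1.66 ± 0.047), LUC7L3 (1.49 ± 0.037) and SF3B1 (1.45 ± 0.028) had the largest changes. Of the chromatin regulators, 24 of 41 tested members rose and 6 fell (median log2 change 0.14, but 15 and 8, median 0.034, with median-ratio scaling, 17 and 11, median 0.021, with quantile normalization, 35 and 3, median 0.27, without mitochondrially encoded genes and 12 and 18, median -0.044, with the GC and length trend removed), led by the remodeller CHD1 (3.44 ± 0.0904 to 10.05 ± 0.0896 FPKM, log2 1.32 ± 0.039).

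Developmental lists were divided. Of the kidney development and nephron list, 8 of 17 tested members rose and 5 fell (median log2 change 0.11, but 5 and 5, median 0.024, with median-ratio scaling and 1 and 9, median -0.15, with quantile normalization). Of the 7 with a mean of at least 5 FPKM, 1 rose and 4 fell (median -0.28). CITED1, a marker of nephron progenitors, was at 24.6, 24.3 and 25.7 FPKM in the 2D libraries and 10.6, 12.02 and 11.1 FPKM in the AggreWell libraries, a change of -1.08 ± 0.048. EYA1, another gene of early kidney, rose from 0.778 ± 0.0711 to 1.88 ± 0.0128 FPKM (log2 0.70 ± 0.052), and HOXA11 changed by -0.59 ± 0.034. Of the HOX genes, 5 of 27 tested members rose and 12 fell (median log2 change -0.11, but 4 and 20, median -0.35, with quantile normalization and 10 and 10, median -0.014, without mitochondrially encoded genes), with HOXA13 at 0.60 ± 0.062. Of the Notch list, 10 of 15 tested members rose and 4 fell (median log2 change 0.33, but 7 and 4, median 0.074, with quantile normalization). The target HES5 rose from 0.768 ± 0.186 to 2.97 ± 0.181 FPKM (log2 1.17 ± 0.080) and the receptor NOTCH3 from 6.22 ± 0.192 to 10.2 ± 0.116 FPKM (log2 0.63 ± 0.038). Of the TGF-beta and BMP list, 12 of 17 tested members rose and 3 fell (median log2 change 0.32, but 11 and 5, median 0.20, with median-ratio scaling and 7 and 5, median 0.079, with quantile normalization), with the BMP antagonist NOG at 2.88, 2.98 and 3.18 FPKM in the 2D libraries and 10.8, 10.3 and 9.11 FPKM in the AggreWell libraries, a change of 1.46 ± 0.064. Of Wnt feedback genes, 5 of 15 tested members rose and 4 fell (median log2 change 0.079, but 3 and 7, median -0.040, with median-ratio scaling, 0 and 9, median -0.25, with quantile normalization, 8 and 2, median 0.17, without mitochondrially encoded genes and 4 and 8, median -0.12, with the GC and length trend removed). Of ERK feedback genes, 5 of 11 tested members rose and 1 fell (median log2 change 0.14, but 3 and 3, median 0.062, with median-ratio scaling, 3 and 3, median -0.073, with quantile normalization and 3 and 2, median 4.8e-06, with the GC and length trend removed); SPRY1 rose from 7.6999 ± 0.0537 to 16.6 ± 1.03 FPKM (log2 1.01 ± 0.047). Of neuronal genes, 10 of 13 tested members rose and 1 fell (median log2 change 0.25, but 5 and 3, median 0.019, with quantile normalization and 5 and 3, median 0.072, with the GC and length trend removed), a list that shares ENO2 with glycolysis. Of primary cilium and Hedgehog genes, 11 of 17 tested members rose and 1 fell (median log2 change 0.42, but 9 and 6, median 0.17, with quantile normalization and 8 and 4, median 0.037, with the GC and length trend removed), led by CEP290 (0.877 ± 0.215 to 3.56 ± 0.111 FPKM, log2 1.29 ± 0.080).

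Growth arrest, clock, iron and cell death lists each held rises and falls. Of p53 targets and CDK inhibitors, 12 of 21 tested members rose and 4 fell (median log2 change 0.33, but 8 and 7, median 0.072, with quantile normalization and 7 and 6, median 0.0056, with the GC and length trend removed), among them GADD45A (30.6 ± 0.2699 to 62.6 ± 1.202 FPKM, log2 1.01 ± 0.026) and CDKN1A (0.80 ± 0.035); HEK293T cells carry an antigen that binds p53. Of FOXO and quiescence genes, 9 of 17 tested members rose and 2 fell (median log2 change 0.16, but 6 and 7, median -0.013, with quantile normalization and 7 and 5, median 0.0024, with the GC and length trend removed); CITED2, a HIF antagonist, rose from 25.7 ± 0.523 to 59.6 ± 0.839 FPKM (log2 1.18 ± 0.028). Of clock genes, 9 of 14 tested members rose and 1 fell (median log2 change 0.31, but 6 and 4, median 0.072, with quantile normalization and 5 and 4, median 0.081, with the GC and length trend removed), with BHLHE41 at 1.69 ± 0.067 beside BHLHE40. Of iron and metal genes, 5 of 15 tested members rose and 6 fell (median log2 change -0.079, but 4 and 9, median -0.19, with median-ratio scaling, 7 and 4, median 0.038, without mitochondrially encoded genes and 5 and 9, median -0.17, with the GC and length trend removed); the transferrin receptor TFRC rose from 16.3 ± 0.605 to 34.3 ± 1.25 FPKM (log2 1.03 ± 0.040) and the metallothioneins MT1F (-0.87 ± 0.10) and MT2A (-0.71 ± 0.092) fell. Of the BCL2 family, 6 of 16 tested members rose and 6 fell (median log2 change 0.038, but 5 and 7, median -0.083, with median-ratio scaling, 4 and 6, median -0.10, with quantile normalization and 8 and 3, median 0.16, without mitochondrially encoded genes), and its largest changes were those of BNIP3L and BNIP3.

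Of autophagy and lysosome genes, 10 of 29 tested members rose and 12 fell (median log2 change -0.033, but 7 and 18, median -0.16, with median-ratio scaling, 14 and 7, median 0.084, without mitochondrially encoded genes and 8 and 18, median -0.16, with the GC and length trend removed), CTSA at -0.43 ± 0.047 and GABARAPL1 at 0.40 ± 0.031. Of amino acid carriers, 7 of 22 tested members rose and 6 fell (median log2 change -0.031, but 6 and 12, median -0.13, with median-ratio scaling, 6 and 12, median -0.20, with quantile normalization, 10 and 4, median 0.072, without mitochondrially encoded genes and 6 and 15, median -0.20, with the GC and length trend removed). SLC38A2 rose from 29.4 ± 2.32 to 51.9 ± 0.964 FPKM (log2 0.80 ± 0.052) and the glutamine carrier SLC1A5 fell from 197 ± 4.697 to 139.7 ± 2.85 FPKM (log2 -0.49 ± 0.026). Of carbonic anhydrases and pH regulators, 5 of 10 tested members rose and 4 fell (median log2 change 0.096, but 3 and 5, median -0.017, with median-ratio scaling, 6 and 2, median 0.21, without mitochondrially encoded genes and 3 and 5, median -0.059, with the GC and length trend removed); CA2 was at 156, 158 and 158 FPKM in the 2D libraries and 80.7, 82.7 and 83.7 FPKM in the AggreWell libraries, a change of -0.92 ± 0.023. Of interferon response genes, 5 of 13 tested members rose and 3 fell (median log2 change 0.090, but 3 and 6, median -0.029, with median-ratio scaling, 5 and 4, median -0.025, with quantile normalization, 8 and 1, median 0.21, without mitochondrially encoded genes and 5 and 3, median -0.0058, with the GC and length trend removed); ISG15 changed by 0.60 ± 0.089 and B2M by -0.33 ± 0.028. Only 6 of the NF-kB and cytokine genes were tested, of which 4 rose and 1 fell (median 0.41, but 2 and 1, median 0.035, with quantile normalization), with RELB at 0.68 ± 0.067. Of the 3 with a mean of at least 5 FPKM, 1 rose and 1 fell (median -0.0066).

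Several of the largest single changes lay outside these lists. TCEAL7, a small nuclear protein of the transcription elongation factor A-like family, was at 0.613, 0.768 and 0.626 FPKM in the 2D libraries and 19.7, 21.4 and 19.5 FPKM in the AggreWell libraries. Its change was 3.67 ± 0.056, and it was listed at 0 in all PANC-1 2D and AggreWell libraries. STAG2, a cohesin subunit, was at 13.2, 15.2 and 12.9 FPKM in the 2D libraries and 63.7, 68.04 and 63.8 FPKM in the AggreWell libraries, a change of 2.16 ± 0.059. RANBP2, a nucleoporin, rose from 1.67 ± 0.1597 to 9.703 ± 0.276 FPKM (log2 2.01 ± 0.055), and OSTN, which encodes the secreted peptide osteocrin, from 0.681 ± 0.0644 to 5.75 ± 0.175 FPKM (log2 2.01 ± 0.051). No 2D library reached 1 FPKM for TCEAL7, OSTN, ANKRD1, KRT17, ZEB1, EYA1 or HES5, so these 7 genes passed the minimum only through the AggreWell libraries, where they are high, and their calls follow in part from that minimum. In DRCC at 1 rpm, TCEAL7 stood at 2.45 ± 0.272 FPKM and OSTN at 5.12 ± 0.745 FPKM. Of the 15 largest rises by the naming rule, P4HA1, PPFIA4, NDRG1 and BHLHE40 are hypoxia list members.

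The change varied with the GC content and length of the transcript. Of the tested genes, 11345 (94.8%) had both values from the longest annotated transcript. In the GC quintile with the lowest content (30.2% to 41.0%), the median log2 change was 0.43 and 352 genes rose at least 2-fold, while in the middle GC quintile the median was -0.012 and 26 genes did. The relation was not a steady fall with GC content, since the highest GC quintile stood at 0.095 with 85 such rises. In the quintile with the longest transcripts the median was 0.27 with 249 such rises, and in the shortest quintile -0.082 with 78. The PANC-1 medians of the same genes were 0.26 in the lowest GC quintile and 0.17 in the longest quintile. STAG2 (36.6% GC, 6045 bases) and RANBP2 (39.2% GC, 11711 bases) are both long and poor in GC. With this trend removed, an alternative chosen after seeing the data, 260 genes were called at least 2-fold higher and 32 lower. Of the 653 rises of at least 2-fold with a value after removal, all 653 were still called higher and 248 were still at least 2-fold. The hypoxia list kept a median of 1.18 with 29 of 30 called higher, KDM4B being the one that was not. The splicing median went from 0.028 to -0.34 and the cilium median from 0.42 to 0.037. The part of fragmentation, RNA integrity or counting in this trend was not tested.

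**Figure D5:**
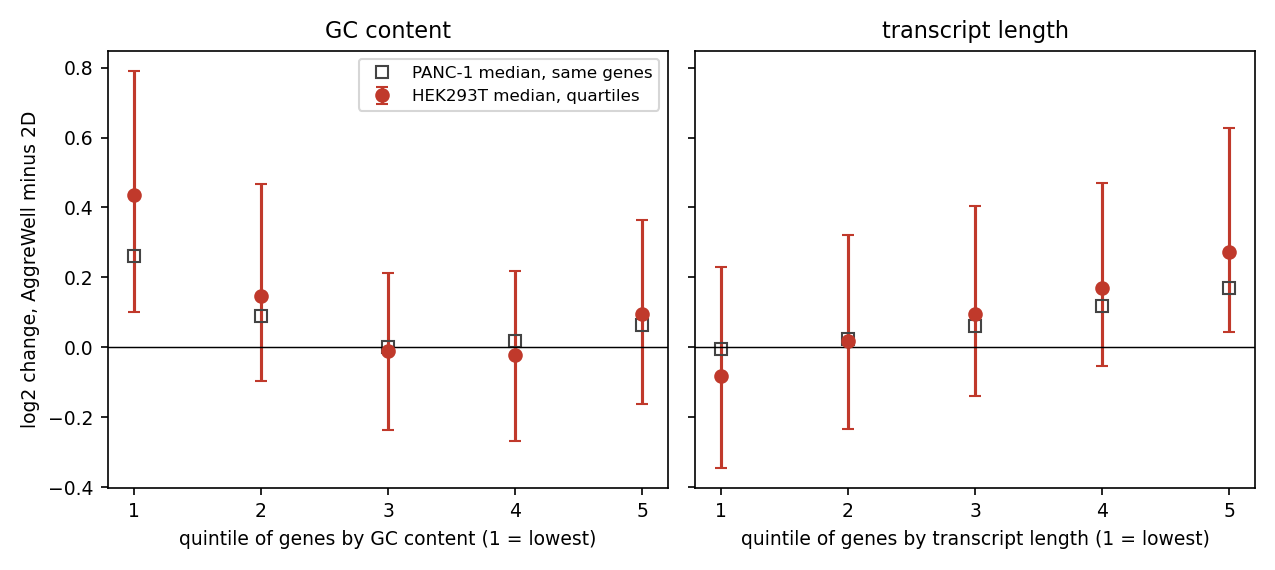
Median log2 change (AggreWell minus 2D) of tested genes in quintiles by GC content (left) and transcript length (right), with bars from the lower to the upper quartile for HEK293T in red and the PANC-1 median of the same genes as open squares. The lowest GC quintile (0.43) and the longest quintile (0.27) stand highest in HEK293T.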

How the data were processed

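RNA of each library was extracted with TRIzol and prepared with the VAHTS Universal V10 kit, per the labels' protocols. The authors deposited 1 table of FPKM values per gene. The submitters' processing notes name fastp, HISAT2, HTSeq, R 3.2.0 and the mouse build mm10, although the gene symbols are human; the roles of these tools, the annotation and the strand setting are not given in the sources used here. Near-identical and antisense genes are therefore uncertain.

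Genes at 1 FPKM or above in 3 or more of the 6 libraries were tested on log2(FPKM + 1) with limma 3.58.1 (R 4.3.3, intensity trend, Benjamini-Hochberg, threshold 0.05). Steps of the FPKM values gave back whole fragments within 0.01 for 26449 of 26450 genes, which set the depths. On simulated data (11247 genes), 94 of 100 genes changed 1.5-fold and all 100 changed 2-fold were called, with 6 false calls. Line differences used the 12 libraries of both lines, and comparisons with DRCC the 12 HEK293T libraries. GC content and length came from the longest GENCODE transcript, and promoters from RefSeq GRCh38.p14.

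Named genes were the 15 largest rises and falls among called coding genes with a mean of at least 5 FPKM in 1 format and no overlap, the 4 largest changes of each of 49 lists, 3 non-coding genes a direction, the 6 largest line differences a direction, and markers. Members and lists were chosen with earlier results of these data known. Alternatives covered the pseudocount, minimum, scaling, pooling, replicate number and left-out libraries. Removal of the GC and length trend (5 spline degrees of freedom) and a minimum in 2D were chosen after seeing the data. Python 3.11.15, pandas 2.3.3 and numpy 2.4.6 were used. Some results are not reported here.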

Additional observations from a re-analysis of the deposited data

Results flagged for a closer look

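The response to AggreWell differed most between HEK293T and PANC-1 for the 12 genes below, by a test of the difference between the lines (limma, interaction term, Benjamini-Hochberg over 12734 genes, 3 libraries per line and format). Of the 203 genes named by the rule for named genes, 183 had a called line difference. Over all 12734 genes, 31.6% had the more positive and 25.2% the more negative change in HEK293T. The rule picks genes by their change in HEK293T or by a called line difference, so the count of 183 follows in part from the rule. Differences are HEK293T minus PANC-1 on the log2(FPKM + 1) scale ± SE, and no cause was tested. TCEAL7 and LOC100507403, at 0 in PANC-1, and LXN and SCG2, below the minimum in HEK293T, entered this test through 1 line only, and their differences restate the change in that line.

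Among genes with the more positive change in HEK293T, TCEAL7 differed by 3.67 ± 0.067. PLOD2, of the collagen-modifying enzymes, differed by 2.205 ± 0.075, and went from 49.2 ± 0.512 to 62.4 ± 0.773 FPKM in PANC-1. ATF3 differed by 2.16 ± 0.056, LOC100507403, a non-coding transcript at 2.02 to 12.4 FPKM in HEK293T, by 2.15 ± 0.071, and INSIG1 by 2.07 ± 0.076. TNFRSF12A, the receptor of the cytokine TWEAK, went from 15.6 ± 0.496 to 36.5 ± 1.87 FPKM in HEK293T and from 157 ± 0.759 to 86.2 ± 1.85 FPKM in PANC-1, a difference of 2.03 ± 0.051.

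Among genes with the more negative change in HEK293T, LXN, a carboxypeptidase inhibitor, differed by -2.16 ± 0.17: it went from 14.3 ± 1.15 to 69.5 ± 1.07 FPKM in PANC-1. ND6 differed by -1.92 ± 0.13 and HSPA1A by -1.58 ± 0.14, both with near-identical copies elsewhere in the genome. METTL7B differed by -1.698 ± 0.12. It went from 0.775 ± 0.129 to 2.33 ± 0.365 FPKM in PANC-1, which makes up part of the difference, and the rest is a fall in HEK293T. SCG2, a secretogranin of neuroendocrine granules, differed by -1.56 ± 0.088, and ARRB1, a beta-arrestin, by -1.51 ± 0.048.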

How the results depend on the processing

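The counts of called genes moved with the scale and the minimum. At least 2-fold calls numbered 1321 higher and 26 lower with a pseudocount of 0.1, and 1425 and 28 with voom on recovered fragments. A mean FPKM of at least 5 left 3069 genes higher, 389 of them at least 2-fold, and 2260 with the more positive change in HEK293T than in PANC-1. That minimum turned the sign of 7 of 49 list medians, those of the ATF4, Wnt, NF-kB, BCL2, keratin, kidney and carbonic anhydrase lists. A minimum of 1 FPKM on the 2D mean turned 4, those of the ATF4, Wnt, NF-kB and BCL2 lists. At least 2-fold falls numbered 33 with median-ratio scaling and 3 without mitochondrially encoded genes. After quantile normalization 3767 genes were higher (351 of them 2-fold or more) and 5074 lower (29), and after removal of the GC and length trend 3823 were higher (260) and 4965 lower (32). The causes were not tested. With 1 library left out in turn, 4758 to 5804 genes were called higher and 3067 to 3359 lower, and 559 to 742 and 12 to 15 at least 2-fold; the highest counts of rises came without 2D replicate 2. The hypoxia median ranged from 1.44 to 1.49 in these fits. Each AggreWell library left out took 23 of the 203 named genes below the minimum and turned no other named call, and leaving out a 2D library turned none. Up to 4 list medians near 0 changed sign there, those of the mitosis, ATF4, Wnt and BCL2 lists. Quantile normalization turned LGR5 (-0.032), WNT5B (-0.036), DUSP5 (-0.016), IL17RD (-0.064), TNFAIP3 (-0.013), IFI27 (-0.0016), WIPI1 (-0.050), RET (-0.0076) and SYT1 (-0.017), and removal of the trend turned SKIL (-0.10). Labels give both formats replicate numbers 1 to 3, with nothing to say that a number marks a shared culture. Correlations of same-numbered deviations were -0.017, 0.308 and 0.193, and AggreWell replicate 1 did not correlate best with its own number. With the number as a replicate block, 5835 genes were called higher and 3387 lower, and no named call changed. Among 3 libraries a format, exact permutation cannot give p under 0.1. Genes that did not reach 1 FPKM in 3 libraries were not tested.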
